A study of Rattus norvegicus with 40 samples.

Results

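The genes described here are the collagen chains: every gene on a rat Affymetrix expression array whose annotated symbol has the form Col, a number, the letter a and a number. 58 probe sets carried such a symbol, alone, out of 31099 on the array, and they named 41 collagen genes among the 14217 genes measured. Each gene is represented by its brightest probe set, the one with the highest mean log2 intensity over all arrays. The 41 chains fell into 8 fibrillar chains, 8 basement membrane chains, 5 type VI chains, 7 cartilage chains, 6 FACIT chains (fibril-associated collagens with interrupted triple helices) and 7 others, mostly collagens that span the cell membrane or form network sheets. Col4a3, Col6a4, Col21a1 and Col28a1 were not analysed here.

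The study profiled the whole intestine and the whole lung of Wistar rat embryos as they approach birth. It has 4 groups of 10 arrays: intestine at embryonic day 16 (E16), intestine at E20, lung at E16 and lung at E20. No group carried a drug, transgene or mutation; all were ordinary embryos of timed matings, delivered by caesarean section. The protocols mention frozen tissue of several siblings, and the labels do not say whether an array holds 1 embryo or a pool, so every p-value rests on how far these 10 arrays of a group scatter, a scatter that can be technical, and age cannot be told apart from litter. Labelling started from 1 µg of intestinal but 2 µg of lung total RNA, so the organs cannot be told apart from the RNA input.

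Collagens are the triple-helical proteins of the extracellular matrix, each built from 3 chains that may come from 1 gene or several. Fibrillar collagens carry tensile load in the interstitium, type IV collagen forms the sheet of basement membranes under epithelium and around capillaries, type VI collagen makes beaded microfilaments between cells and fibrils, and collagens II and IX are the fibrils of cartilage such as the rings of the airway. Between E16 and E20 the rat lung widens and thins its mesenchyme toward future air spaces while capillaries draw near the epithelium, and the intestine forms villi.

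Values are log2 of the deposited intensity, so 1 unit is a 2-fold difference. A chain was called changed where limma's moderated test, fitted to all 40 arrays and adjusted by the Benjamini-Hochberg method over 14217 genes, gave an adjusted p under 0.05 together with at least a 2-fold difference; tests were two-sided with n = 10 per group. A group mean under 7.89, the median of all log2 values, is called dim. 8 chains were dim in all 4 groups (Col5a3, Col4a4, Col7a1, Col10a1, Col11a2, Col19a1, Col20a1 and Col23a1), 20 were dim in none, and a fold against a dim group can understate the difference. Levels of different genes are not compared, since probe sets differ in brightness for the same amount of RNA.

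Array medians ran from 220 to 264 intensity units. The organ labels matched their markers: Sftpc (surfactant protein C) lay between 10.46 and 14.87 in lung arrays and between 6.03 and 6.76 in intestine, while Cdx2, the intestinal homeobox gene, reached 11.94 to 12.41 in the E20 intestine and 6.23 to 6.88 in lung. 9 arrays stood above their group median by over 0.75 log2 in markers of a neighbouring tissue: intestine E16 replicates 6 and 8 (exocrine pancreas) and 9 (liver and pancreas), intestine E20 replicate 9 (liver), lung E16 replicates 5 and 9 (skeletal and cardiac muscle), lung E20 replicates 1 and 8 (liver) and lung E20 replicate 6 (mesothelium). Without these 9 arrays 11, 12 and 13 chains were called for the intestinal change, the lung change and their difference, against 11, 12 and 12 with all arrays, and the chains whose call moved are named where they are described. The rule compares each array with its own group, so it cannot show tissue shared by a whole group. The mean level of the liver markers had a median of 7.92 in the E16 lung and 6.73 in the E20 lung. In the intestine these medians were 7.45 at E16 and 8.59 at E20. Leaving out the 9 arrays does not address such differences between groups, and their part in the collagen values was not tested. Whole organs were measured, so fewer cells of a type and less RNA per cell cannot be told apart in any value here.

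From E16 to E20 most chains that were called fell in the intestine, while in the lung 3 type IV and 5 type VI chains rose and 3 cartilage chains and Col26a1 fell. In the intestine 11 of 41 chains were called, 2 higher and 9 lower (limma), beside 15.1% of all genes called, 8.79% higher and 6.26% lower. The median change over the 41 chains was -0.28 log2, against -0.09 over all genes. In the lung 12 chains were called, 8 higher and 4 lower, beside 11.8% of all genes, 7.15% higher and 4.63% lower, with a median of 0.07 against -0.01. A stricter test against a 2-fold change (limma's treat) kept 9 of the 12, without Col4a1, Col4a2 and Col6a5. Arrays of the 2 ages did not overlap for 15 chains in the intestine and 15 in the lung, beside 37.6% and 31.1% of all genes.

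4 chains fell in both organs: Col2a1, Col9a1, Col9a3 and Col26a1. Only Col6a5 passed as higher in both, and only Col6a6 passed in opposite directions, lower in intestine and higher in lung. The age change itself differed between the organs for 12 chains by the interaction test in limma, 8 more positive in lung and 4 more negative, beside 17.6% of all genes (9.13% more positive, 8.48% more negative). Lung and intestine differed in 8 chains at E16, 7 higher in lung and 1 lower, beside 5.13% of all genes called, 2.13% higher and 3% lower. At E20 they differed in 15, 12 higher in lung and 3 lower, beside 16.1% of all genes, 7.91% higher and 8.21% lower. Groups of the 2 organs did not overlap for 13 chains at E16 and 16 at E20, beside 19.3% and 34.1% of all genes.

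**Figure D1:**
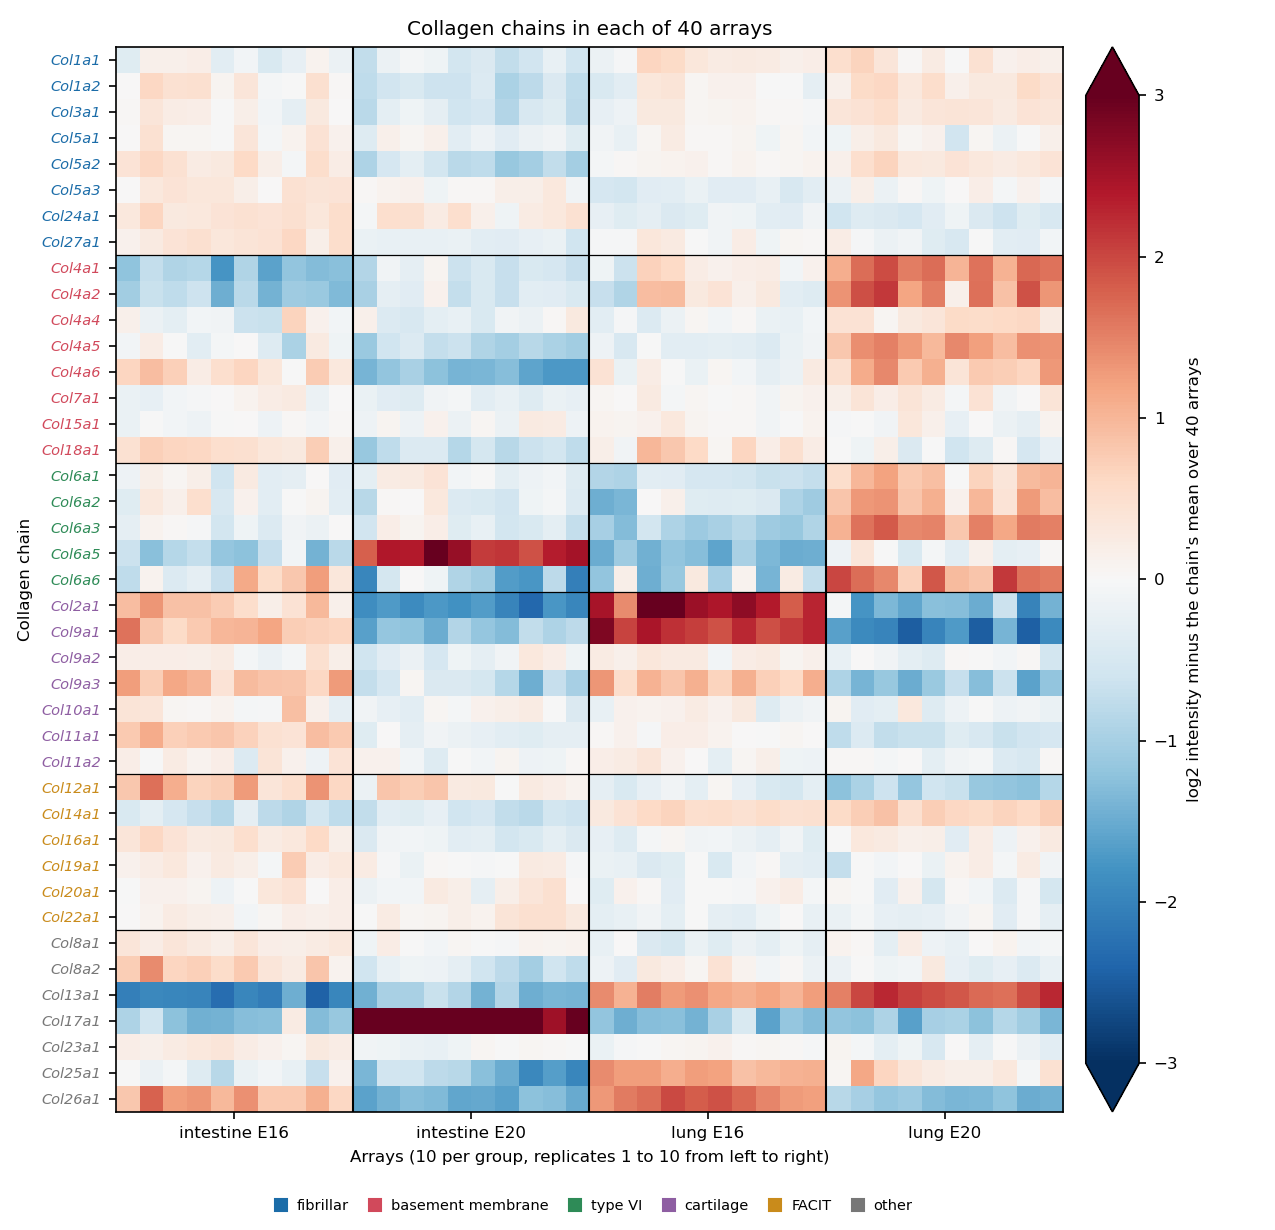
Each row is 1 collagen chain and each column 1 array, with the colour giving the array's log2 intensity minus that chain's mean over all 40 arrays; rows are grouped by class and columns by organ and age. Col4a1, Col4a2, Col4a5, Col6a1, Col6a2 and Col6a3 are highest in the E20 lung block, Col2a1 and Col9a1 in the E16 lung block, and Col17a1 and Col6a5 in the E20 intestine block.

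**Figure D2:**
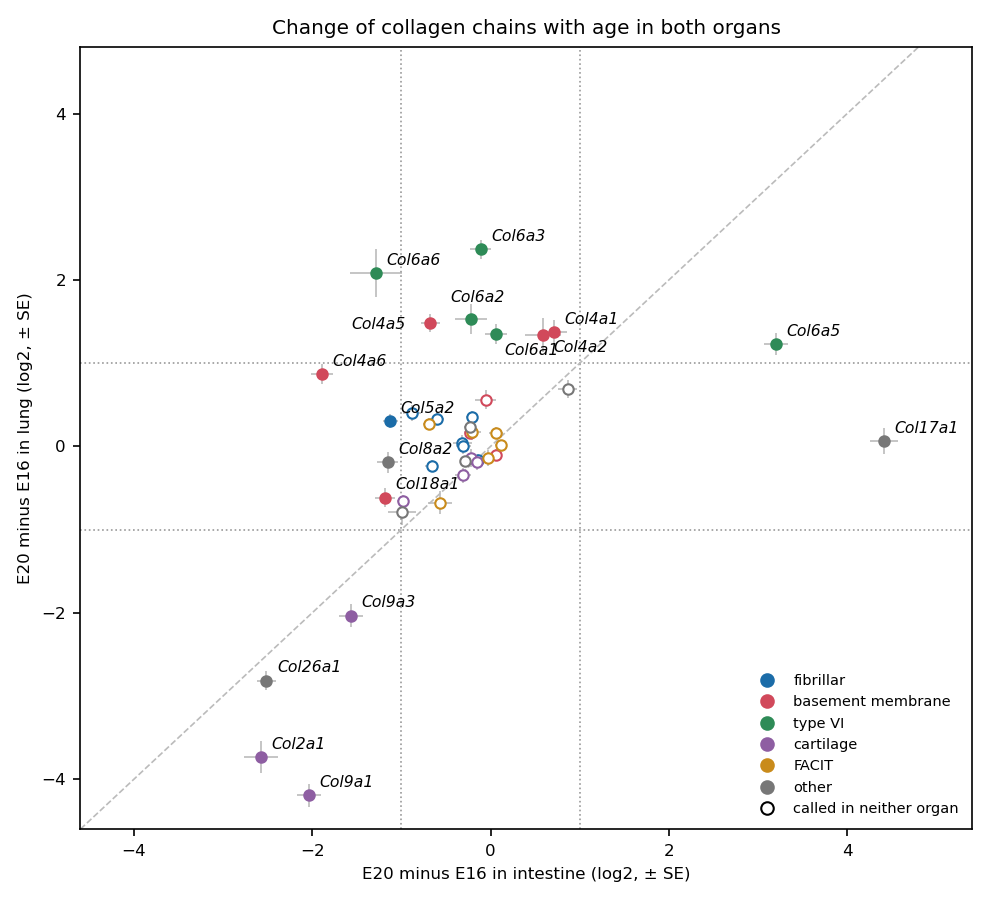
Each point is 1 chain, placed by its E20 minus E16 change in intestine (horizontal) and in lung (vertical), in log2 with standard errors; filled points were called in at least 1 organ and dotted lines mark a 2-fold change. Col6a6 lies in the upper left with changes of -1.28 and 2.08, Col2a1 and Col9a1 at the lower left, and Col17a1 at the far right with 4.41 in intestine and 0.07 in lung.

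Among the fibrillar chains, which make up the rope-like fibrils, 1 of 8 was called in the intestine (Col5a2, lower) and 0 of 8 in the lung, where 6 of the 8 had an unadjusted p under 0.05 in limma and changes under 2-fold. The median change of the class was -0.46 log2 in intestine and 0.17 in lung. At E20 2 of the 8, Col1a2 and Col5a2, were higher in lung than in intestine.

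Col1a1 encodes the alpha 1 chain of type I collagen, the main fibril of soft and hard connective tissue. It ran from 12.29 (median 12.62) to 12.95 in the intestine at E16 and from 12.01 (12.27) to 12.70 at E20, and from 12.57 (12.99) to 13.41 in the lung at E16 and 12.74 (12.98) to 13.43 at E20. Ages overlapped in both organs. The changes were -0.32 ± 0.11 (SE) log2 in intestine and 0.03 ± 0.11 in lung, neither of them called.

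Col1a2, the partner chain of the type I trimer, ran from 12.71 (median 12.99) to 13.40 in the E16 intestine and from 11.81 (12.15) to 12.35 at E20, without overlap. In lung it ran from 12.31 (12.79) to 13.15 and then from 12.92 (13.14) to 13.39, with overlap. The intestinal change of -0.88 ± 0.10 and the lung change of 0.40 ± 0.10 each stayed under the 2-fold limit. The 2 changes differed by 1.28 ± 0.14 log2 (2.43-fold, limma adjusted p = 1.09e-10), and at E20 Col1a2 was 2.04-fold higher in lung (adjusted p = 2.18e-12). A second Col1a2 probe set gave a difference of 0.88 and 0.94 for lung minus intestine at E20, neither called. With the mean of both probe sets the E20 value was 0.99 and not called, and a test against a 2-fold change (limma's treat) did not call it either.

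Col3a1, the type III chain of distensible tissue, and Col5a2, a chain of the type V collagen that sits inside type I fibrils and limits their width, are neighbours on chromosome 9 with no other coding gene between them. Col5a2 ran from 12.07 (median 12.48) to 12.75 in the E16 intestine and fell to 10.99 (11.34) to 11.84 at E20, a 2.18-fold decrease (-1.12 ± 0.08 log2, limma adjusted p = 1.1e-15) with no overlap. In lung it went from a range of 12.07 (12.19) to 12.25 to one of 12.29 (12.45) to 12.79, also without overlap but at 0.30 ± 0.08 log2 not called. The 2 organs' changes differed by 1.43 ± 0.12 log2 (adjusted p = 5.31e-14). Col3a1 had the same signs with smaller sizes, -0.60 ± 0.08 in intestine and 0.33 ± 0.08 in lung, and was not called in either. Its E20 arrays were 12.60 to 13.35 in intestine and 13.76 to 14.02 in lung, so the organs did not overlap at that age. Col5a1, the partner of Col5a2 in type V collagen, changed by -0.31 ± 0.09 and 0.00 ± 0.09 and was not called.

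Of the other fibrillar chains, Col5a3 was dim in all groups and Col24a1 in 3 of 4, and Col27a1, a chain of cartilage and other developing tissue, changed by -0.66 in intestine and -0.23 in lung; none of the 3 was called.

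3 of the 8 basement membrane chains, which form or attach to the sheet under epithelium and endothelium, rose in lung (Col4a1, Col4a2 and Col4a5) and none fell. In the intestine 2 were lower (Col4a6 and Col18a1) and none higher. The class median was 0.71 log2 in lung and -0.15 in intestine. At E20 4 of the 8 were higher in lung than in intestine.

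Col4a1 and Col4a2 encode the chains of the type IV trimer found in nearly all basement membranes, and they lie head to head on chromosome 16. In the RefSeq promoter windows of rat build GRCr8, which span 250 bases before to 50 after each gene's start, the starts of Col4a1 (plus strand) and Col4a2 (minus strand) were 77 bases apart and the windows shared 176 bases. The Col4a1 window, at chr16:84885347-84885646 on the plus strand, is printed because it holds the starts of both genes, Col4a1 at base 251 and Col4a2 at base 174. Capitals mark the letters CCAAT and GGGCGG or their reverse complements, ATTGG and CCGCCC.
Col4a1: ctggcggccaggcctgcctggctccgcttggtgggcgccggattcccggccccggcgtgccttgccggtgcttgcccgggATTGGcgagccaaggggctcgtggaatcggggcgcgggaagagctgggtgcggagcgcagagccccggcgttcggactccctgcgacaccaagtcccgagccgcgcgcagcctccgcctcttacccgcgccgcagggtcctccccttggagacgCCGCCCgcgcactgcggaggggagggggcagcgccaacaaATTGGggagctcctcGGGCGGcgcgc
The window held 2 matches to CCAAT and 2 to GGGCGG, and none to TATAAA, the 3 motifs searched on both strands. Over all 33469 windows of the table, 37.5% held CCAAT, 33.1% GGGCGG and 14.2% TATAAA. Over the 35 windows of the 32 collagen genes matched by Entrez identifier, 10 held CCAAT, 19 held GGGCGG and 4 held TATAAA. No 2 matches overlap in the windows printed, and a match is a string of letters, not a measured binding site.

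The values of this gene pair moved side by side. Col4a1 ran from 10.73 (median 11.54) to 12.08 in the E16 lung and from 12.40 (13.01) to 13.34 at E20, without overlap, a rise of 1.37 ± 0.14 log2 or 2.59-fold (limma adjusted p = 3.65e-11). In the intestine it ran from 9.61 (10.18) to 10.65 and then from 10.49 (10.91) to 11.46, a change of 0.71 ± 0.14 that was not called. Col4a2 went from a range of 9.70 (10.83) to 11.55 to one of 10.75 (12.04) to 12.73 in lung, which overlap, for a rise of 1.33 ± 0.20 or 2.52-fold (adjusted p = 2.6e-07). In the intestine it ran from 9.15 (9.55) to 9.99 and then from 9.62 (10.21) to 10.72, a change of 0.59 ± 0.20 that was not called.

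Both genes were higher in lung than in intestine already at E16, Col4a1 by 2.47-fold and Col4a2 by 2.14-fold, and at E20 by 3.90-fold and 3.60-fold. The test against a 2-fold change (limma's treat) called neither gene for the lung rise or the E16 difference, and called both at E20. The difference between the organs' age changes, 0.66 ± 0.20 for Col4a1 and 0.75 ± 0.29 for Col4a2, was not called. The endothelial markers moved in the same comparisons: 4 of 7 rose in lung with age and 0 of 7 in intestine by limma (4 of 7 there had an unadjusted p under 0.05), and 5 of 7 at E16 and 7 of 7 at E20 were higher in lung. Over all genes 7.15% rose in lung and 8.79% in intestine, and 2.13% at E16 and 7.91% at E20 were higher in lung. The mean level over those 7 genes was 8.71 to 9.51 in the E16 intestine, 9.01 to 9.60 in the E20 intestine, 9.74 to 10.19 in the E16 lung and 10.87 to 11.41 in the E20 lung, and the part of endothelium in the Col4a1 and Col4a2 values was not tested. No marker could be at 0, since the lowest deposited intensity was 6.65 on the linear scale. Within lung E20 the lowest Col4a1 arrays were replicates 1, 6 and 8 (12.48, 12.40 and 12.41), which are also the 3 with liver or mesothelial transcripts; without the 9 arrays named above the rise was 1.55.

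Col4a5 and Col4a6 are the X-linked pair of type IV chains, which build a trimer of more specialised basement membranes and, in humans, underlie an inherited nephritis when Col4a5 is mutated. They also start on opposite strands, 1415 bases apart. Their windows are given because the pair's changes had opposite signs in the 2 organs. Col4a5 starts in chrX:109907109-109907408 on the plus strand and Col4a6 in chrX:109905895-109906194 on the minus strand, both in GRCr8 from RefSeq, each read 5′ to 3′ along its own strand with the same motifs in capitals.
Col4a5: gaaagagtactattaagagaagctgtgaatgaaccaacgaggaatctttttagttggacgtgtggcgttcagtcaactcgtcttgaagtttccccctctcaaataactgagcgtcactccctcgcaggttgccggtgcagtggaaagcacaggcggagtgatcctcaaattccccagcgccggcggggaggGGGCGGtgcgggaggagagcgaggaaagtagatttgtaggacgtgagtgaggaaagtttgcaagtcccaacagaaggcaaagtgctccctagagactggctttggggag
Col4a6: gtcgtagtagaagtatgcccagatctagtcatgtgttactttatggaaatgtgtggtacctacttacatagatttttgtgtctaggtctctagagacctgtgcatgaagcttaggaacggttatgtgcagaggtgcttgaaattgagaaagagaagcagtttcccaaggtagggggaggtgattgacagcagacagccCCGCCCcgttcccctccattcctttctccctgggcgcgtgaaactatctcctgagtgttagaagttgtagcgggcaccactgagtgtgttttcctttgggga
Each of these windows held 1 GGGCGG or reverse complement and neither CCAAT nor TATAAA.

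Col4a5 ran from 10.15 (median 10.34) to 10.62 in the E16 lung and from 11.45 (11.95) to 12.14 at E20, without overlap, a rise of 1.49 ± 0.11 log2 or 2.80-fold (limma adjusted p = 8.96e-16). In the intestine it ran from 9.69 (10.56) to 10.90 and then from 9.53 (9.77) to 10.23, a change of -0.68 ± 0.11 that was not called. Col4a6 fell in the intestine from a range of 8.58 (9.16) to 9.52 to one of 6.87 (7.21) to 7.62, a 3.72-fold decrease (-1.89 ± 0.12 log2, adjusted p = 9.79e-18) that ended in the dim range. In lung it ran from 8.33 (8.56) to 9.03 and then from 8.98 (9.37) to 10.03, which overlap, a change of 0.87 ± 0.12 that was not called.

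The organs' changes differed by 2.16 ± 0.15 log2 for Col4a5 (4.48-fold, adjusted p = 5.09e-16) and by 2.76 ± 0.17 for Col4a6 (6.77-fold, adjusted p = 7.6e-18). At E16 neither gene was called between the organs. At E20 lung exceeded intestine 4.13-fold for Col4a5 and 4.79-fold for Col4a6, with no overlap of arrays. The second Col4a6 probe set gave -1.38 in intestine and 0.78 in lung, with the same calls.

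Col18a1, the heparan sulfate bearing collagen whose end fragment is endostatin, fell in the intestine by 1.19 ± 0.12 log2 or 2.27-fold (limma adjusted p = 3.5e-12). Its change in lung was -0.62 ± 0.12 and not called, while its second probe set gave -1.06 and was called. Col15a1, its relative in vascular and muscle basement membrane, changed by 0.06 and -0.10, with a second probe set at -1.02 in lung that was called. Col4a4 and Col7a1, the latter the anchoring fibril of skin, were dim in all 4 groups and not called.

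**Figure D3:**
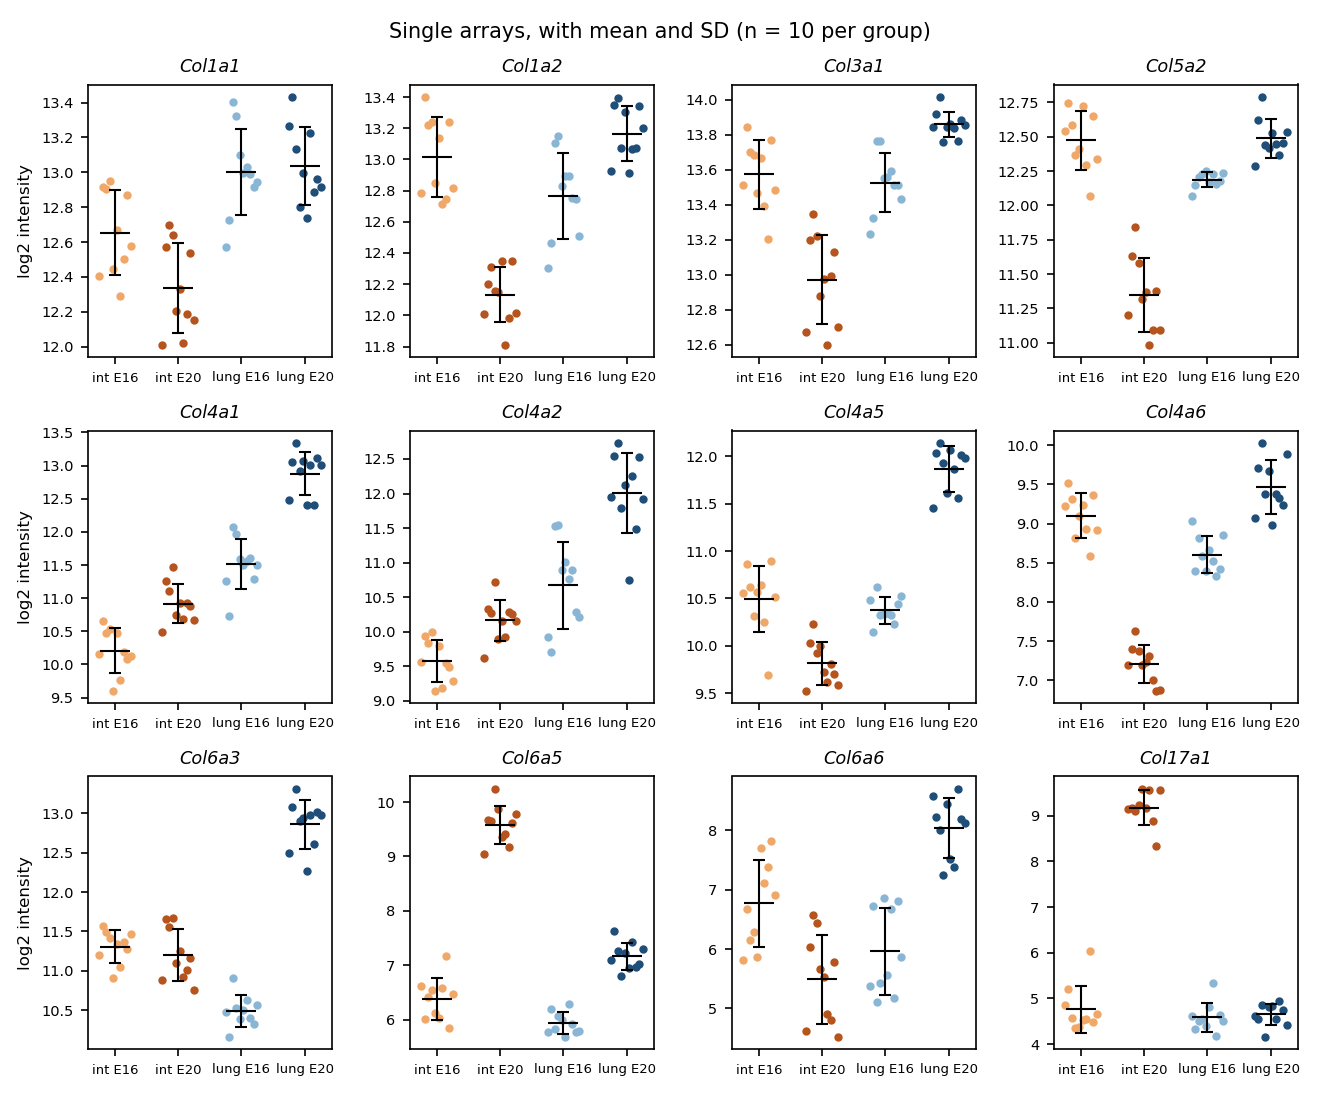
Each panel shows 1 chain, with a point for every array, the group mean as a long bar and the SD as error bars (n = 10 per group), on a log2 intensity axis whose range differs between panels. The organs overlap for Col4a5 and Col4a6 at E16 and not at E20, where the lung arrays of Col4a5 (11.45 to 12.14) lie above all intestine arrays.

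Type VI was the class with every measured member called in lung: 5 of 5 chains were higher at E20, with a class median of 1.53 log2. In the intestine 1 of 5 was higher (Col6a5) and 1 lower (Col6a6), and the class median was -0.11. All 5 age changes differed between the organs by the limma interaction test, 4 more positive in lung and Col6a5 more negative, with the Col6a2 call resting on 1 of its 2 probe sets. None of the 5 was called between the organs at E16, and 3 were higher in lung and 1 lower at E20.

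Col6a1, Col6a2 and Col6a3 encode the chains of the classical type VI microfilament, and Col6a1 and Col6a2 are neighbours on chromosome 20. Col6a3, the longest of these chains, ran from 10.17 (median 10.49) to 10.90 in the E16 lung and from 12.27 (12.96) to 13.31 at E20. That is a rise of 2.37 ± 0.12 log2 or 5.17-fold (limma adjusted p = 2.63e-21) with no overlap. In the intestine it ran from 10.91 (11.35) to 11.57 and then from 10.76 (11.13) to 11.67, a change of -0.11 ± 0.12. Before the rise the lung arrays were all below the intestine arrays, and after it all above them.

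Col6a1 ran from 9.98 (median 10.32) to 10.60 in the E16 lung and from 10.91 (11.75) to 12.12 at E20, a 2.54-fold rise (1.35 ± 0.12 log2, limma adjusted p = 6.79e-13) with no overlap. In the intestine its ranges were 10.32 (10.85) to 11.19 and 10.54 (10.84) to 11.32. Col6a2 ran from 9.28 (10.33) to 10.90 and from 10.86 (11.70) to 12.08 in lung, overlapping at the edge, a 2.89-fold rise (1.53 ± 0.18, adjusted p = 4.31e-10). In the intestine its ranges were 10.25 (10.77) to 11.25 and 9.92 (10.47) to 11.05. Neither gene was called in the intestine, where the changes were 0.06 ± 0.12 and -0.22 ± 0.18.

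The organs' changes differed by 2.48 ± 0.16 log2 for Col6a3, 1.28 ± 0.17 for Col6a1 and 1.75 ± 0.25 for Col6a2 (limma adjusted p = 5.62e-17, 2e-08 and 7.07e-08). The second Col6a3 probe set rose in lung by 1.53. The second Col6a2 probe set was dim, at 6.93 and 7.02 in the lung groups, and changed by 0.09; with the mean of both probe sets the Col6a2 change in lung was 0.81, its difference between the organs 0.95 and lung minus intestine at E20 0.61, and none of the 3 was called. As with Col4a1, replicates 1, 6 and 8 held the lowest Col6a3 values of the E20 lung (12.50, 12.27 and 12.61), and without the 9 arrays named above the Col6a3 rise was 2.51.

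Col6a5 and Col6a6 encode the later described alpha 5 and alpha 6 chains, which can stand in for alpha 3 in the trimer. They are neighbours on chromosome 8, on the same strand, with starts 110677 bases apart and no other coding gene between them. Their windows are shown because these neighbours moved oppositely in the intestine. The Col6a5 window, the upstream of 2 annotated starts, lies at chr8:115462795-115463094 and the Col6a6 window at chr8:115352112-115352411, both on the minus strand of GRCr8 from RefSeq, read 5′ to 3′ with the motifs in capitals.
Col6a5: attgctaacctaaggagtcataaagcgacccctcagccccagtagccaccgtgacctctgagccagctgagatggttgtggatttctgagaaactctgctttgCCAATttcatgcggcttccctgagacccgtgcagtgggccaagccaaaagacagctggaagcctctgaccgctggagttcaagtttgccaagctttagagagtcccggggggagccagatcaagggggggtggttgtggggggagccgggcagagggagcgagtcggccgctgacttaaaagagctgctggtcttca
Col6a6: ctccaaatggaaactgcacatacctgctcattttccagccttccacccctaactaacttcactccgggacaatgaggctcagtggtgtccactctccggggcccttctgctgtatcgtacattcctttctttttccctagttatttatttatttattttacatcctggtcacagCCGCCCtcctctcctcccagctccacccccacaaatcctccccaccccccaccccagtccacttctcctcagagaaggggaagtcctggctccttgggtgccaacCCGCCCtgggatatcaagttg
The Col6a5 window held 1 CCAAT, and the Col6a6 window held 2 matches to the reverse complement of GGGCGG.

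Col6a5 ran from 5.84 (median 6.44) to 7.17 in the E16 intestine and from 9.05 (9.63) to 10.24 at E20, a 9.20-fold rise (3.20 ± 0.13 log2, limma adjusted p = 3.36e-24) out of the dim range. In lung it ran from 5.69 (5.87) to 6.29 and then from 6.80 (7.16) to 7.62, a 2.35-fold rise (1.23 ± 0.13, adjusted p = 6.14e-11) within the dim range. Neither pair of groups overlapped. Adding 50 intensity units before the logarithm reduced the lung rise to 0.80, which was not called, and limma's treat did not call the lung rise either. At E20 Col6a5 was 5.34-fold higher in intestine than in lung (adjusted p = 5.15e-20).

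Col6a6 went the other way. It ran from 5.81 (median 6.79) to 7.81 in the E16 intestine and from 4.53 (5.60) to 6.58 at E20, which overlap, a 2.44-fold decrease (-1.28 ± 0.29 log2, limma adjusted p = 0.000145), both groups dim. In lung it ran from 5.11 (5.71) to 6.87 and then from 7.25 (8.16) to 8.70, without overlap, a 4.23-fold rise (2.08 ± 0.29, adjusted p = 3.79e-08). The intestinal decrease lost its call without the 9 arrays named above (-0.95) and with 50 units added (-0.74); the lung rise without those arrays was 2.21. The organs' changes differed by 3.37 ± 0.41 log2, or 10.3-fold (adjusted p = 2.12e-09).

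3 of the 7 cartilage chains fell in both organs: Col2a1, Col9a1 and Col9a3. None rose in either. The class median was -0.99 log2 in intestine and -0.65 in lung. At E16 Col2a1, by its brightest probe set, and Col9a1 were higher in lung than in intestine, and at E20 none of the 7 was called between the organs.

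Col2a1 is the main fibrillar chain of cartilage. It ran from 9.51 (median 10.54) to 11.50 in the E16 lung and from 6.09 (6.72) to 8.03 at E20, a 13.3-fold decrease (-3.74 ± 0.19 log2, limma adjusted p = 1.54e-20). In the intestine it ran from 8.25 (8.91) to 9.42 and then from 5.73 (6.25) to 6.42, a 5.95-fold decrease (-2.57 ± 0.19, adjusted p = 1.6e-15). Ages did not overlap in either organ. The lung change was the more negative, with a difference of -1.16 ± 0.27 log2 (limma adjusted p = 0.000259). Both organs ended in the dim range at E20, and lung started higher at E16 by this probe set. The other 2 Col2a1 probe sets were dim in all groups and changed by -0.26 and -0.28 in intestine and by -0.47 and -0.49 in lung, so they did not show the decrease. For lung minus intestine at E16 they gave 0.03 and -0.14 beside 1.75 for the brightest. With the mean of all 3, that value was 0.54 and the difference between the organs' changes -0.53, and neither was called.

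Col9a1, a chain of the type IX collagen that coats cartilage fibrils, ran from 9.02 (median 9.25) to 9.91 in the E16 lung and from 4.63 (5.16) to 5.70 at E20. The change of -4.19 ± 0.14 log2, an 18.3-fold decrease (limma adjusted p = 2.79e-27), was the most negative change of any chain in either organ. In the intestine it ran from 7.67 (7.89) to 8.73 and then from 5.47 (5.94) to 6.35, a 4.10-fold decrease (-2.03 ± 0.14, adjusted p = 4.35e-17). The lung change was again the more negative, with a difference of -2.16 ± 0.19 log2 (limma adjusted p = 4.89e-13). Both organs again ended in the dim range. Lung stood above intestine at E16 (2.47-fold) and below it at E20, where the 1.81-fold difference was not called with all arrays and was called without the 9 arrays named above (-1.01 log2).

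The type IX partners of Col9a1 did not move as one. Col9a3 ran from 7.91 (median 8.33) to 8.70 and then 5.79 (6.22) to 6.75 in lung, and from 7.79 (8.29) to 8.66 and then 5.93 (6.78) to 7.45 in the intestine. It fell 4.10-fold in lung (-2.04 ± 0.14 log2, limma adjusted p = 9.94e-17) and 2.96-fold in intestine (-1.56 ± 0.14, adjusted p = 2.28e-13), without overlap of the ages. Its E20 means were dim in both organs. Col9a2 ran from 8.80 (9.11) to 9.22 and then 8.33 (8.79) to 8.92 in lung, and from 8.70 (9.06) to 9.37 and then 8.27 (8.72) to 9.19 in intestine. Its changes of -0.35 ± 0.09 and -0.31 ± 0.09 were not called.

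Col11a1, the minor fibril chain that pairs with Col2a1 in cartilage and also occurs in mesenchyme, changed by -0.99 ± 0.06 in intestine, just under 2-fold (1.98-fold), and by -0.65 ± 0.06 in lung, with ages not overlapping in either. Its second probe set gave -1.94 and -2.35 and was called in both. Without the 9 arrays named above the intestinal change of the brightest probe set was -1.02 and was called. Col10a1, the chain of hypertrophic cartilage, stayed dim in every group, between 4.97 and 6.31, and changed by -0.22 and -0.14. Col11a2 was dim as well and not called.

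Other cartilage genes gave a mixed picture beside these chains. Of 14 cartilage genes that are not collagens, 2 fell in the intestine (Cnmd and Hapln1) and 3 in lung (Cnmd, Mia and Sox6), with medians of -0.14 and -0.20 log2. Over all genes 15.1% were called in intestine (6.26% lower) and 11.8% in lung (4.63% lower). Cnmd, the secreted cartilage protein chondromodulin, fell by 2.47 ± 0.25 in intestine and by 4.35 ± 0.25 in lung (limma adjusted p = 1.06e-11 and 5.28e-19). Cnmd was dim in intestine at both ages and in the E20 lung, and Sox6 was dim in lung at both ages. Mia, also expressed in cartilage, fell by 2.35 ± 0.23 in lung, and Hapln1, a link protein, by 1.00 ± 0.07 in intestine. Acan, the aggrecan core protein, changed by 0.14 ± 0.10 and 0.03 ± 0.10, and Matn1, a cartilage matrilin, by -0.14 ± 0.07 and 0.18 ± 0.07, none of them called.

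The mean level over the 14 genes was 7.26 to 7.68 in the E16 intestine, 6.90 to 7.25 in the E20 intestine, 7.58 to 7.76 in the E16 lung and 6.84 to 7.31 in the E20 lung. Within the E20 lung, replicates 1 and 8 held the highest Col2a1 (8.03 and 7.44), Cnmd (6.49 and 6.55) and Mia (9.26 and 9.39). Without the 9 arrays named above the lung changes were -4.07 log2 for Col2a1 and -4.40 for Col9a1. The part of cartilage taken with each sample in these values was not tested.

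**Figure D4:**
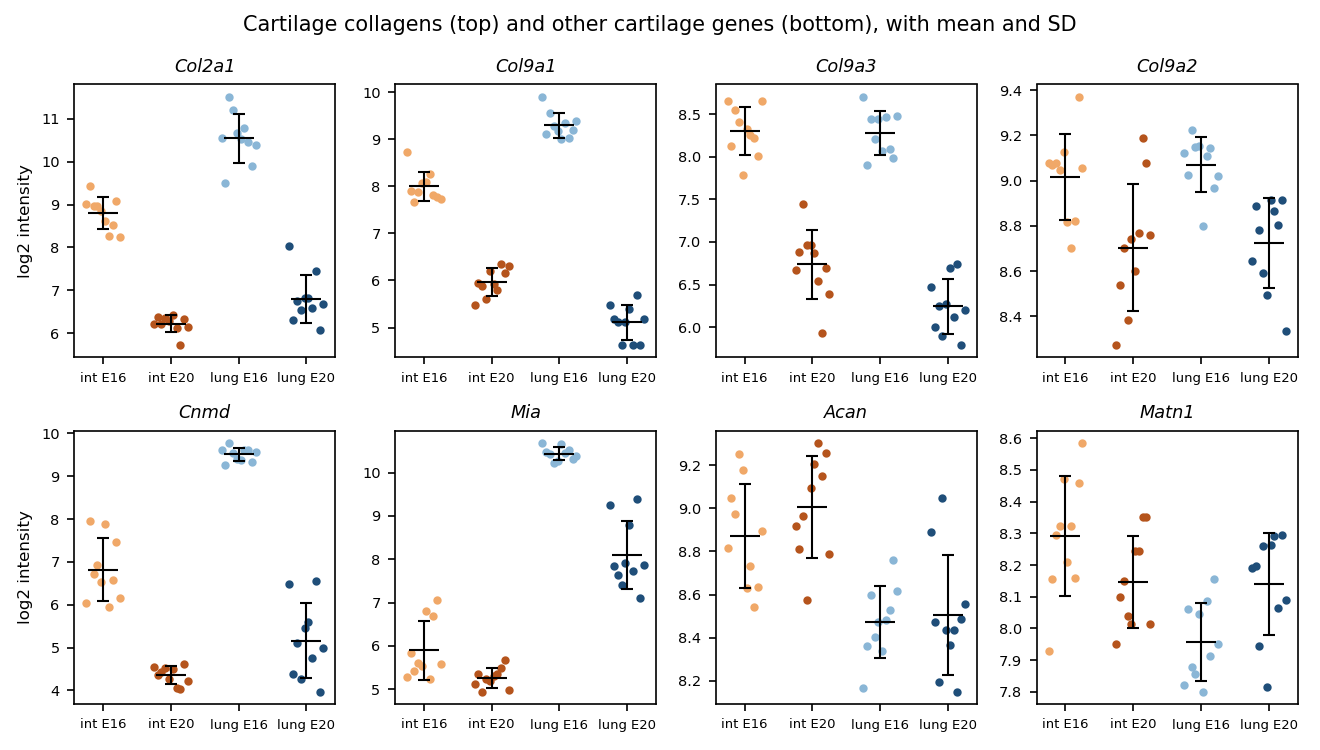
Upper panels show 4 cartilage collagen chains and lower panels 4 cartilage genes that are not collagens, with a point per array, the group mean and the SD (n = 10 per group) on log2 intensity axes that differ between panels. Col2a1, Col9a1, Col9a3 and Cnmd separate E16 from E20 in both organs, whereas the ages overlap for Acan and Matn1, and for Col9a2 in both organs.

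The FACIT chains sit on the surface of fibrils and link them to other matrix. By limma 0 of 6 was called with age in either organ, with class medians of -0.12 log2 in intestine and 0.09 in lung; 3 of the 6 in each organ had an unadjusted p under 0.05. Col12a1 and Col14a1, which both decorate type I fibrils, stood on opposite sides of the organ comparison.

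Col14a1 ran from 10.78 (median 11.04) to 11.41 in the E16 intestine, 10.85 (11.10) to 11.43 in the E20 intestine, 11.97 (12.16) to 12.33 in the E16 lung and 12.16 (12.31) to 12.55 in the E20 lung. Lung was 2.15-fold higher at E16 and 2.31-fold at E20 (limma adjusted p = 3.29e-16 and 3.54e-18), with no overlap at either age. Col12a1 ran from 9.77 (10.19) to 11.05, 9.25 (9.69) to 10.26, 8.88 (9.13) to 9.48 and 8.18 (8.37) to 8.82 in the same order. It was 2.28-fold lower in lung at E16 and 2.46-fold at E20 (adjusted p = 8.25e-10 and 2.36e-11), again without overlap, but its other 2 probe sets were not called, and with the mean of all 3 the values were -0.42 and -0.52 log2, not called either. Col16a1 changed by -0.69 in intestine and 0.27 in lung, a difference of 0.96 ± 0.11 just under the 2-fold limit, which was called without the 9 arrays named above (1.06). Col19a1 and Col20a1 were dim in all groups, and Col22a1 was near the dim limit; none was called.

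Among the 7 other chains Col17a1 moved most. Col17a1 spans the membrane of basal epithelial cells as part of the hemidesmosome, the rivet that holds epithelium to its basement membrane. It ran from 4.36 (median 4.56) to 6.03 in the E16 intestine and from 8.33 (9.17) to 9.59 at E20, a 21.3-fold rise of 4.41 ± 0.16 log2 (limma adjusted p = 4.04e-26). In lung it stayed dim, from 4.18 (4.53) to 5.34 at E16 and from 4.17 (4.68) to 4.94 at E20. The change there was 0.07 ± 0.16, and the organs' changes (lung minus intestine) differed by -4.35 ± 0.23 log2 (adjusted p = 3.08e-20). The 7 intestinal epithelium markers also rose in the intestine, 7 of 7 with a median of 4.54, beside 8.79% of all genes. In lung 0 of 7 was called by limma (2 of 7 with an unadjusted p under 0.05), beside 11.8% of all genes. The part of these markers in the Col17a1 rise was not tested.

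Col26a1, a little studied secreted collagen first found in testis and ovary, ran from 9.27 (median 9.67) to 10.41 and then from 7.01 (7.18) to 7.41 in the intestine, and from 9.87 (10.26) to 10.63 and then from 7.15 (7.39) to 7.81 in the lung. It fell 5.71-fold in intestine (-2.51 ± 0.11 log2) and 7.05-fold in lung (-2.82 ± 0.11; limma adjusted p = 3.74e-23 and 2.02e-24), and both organs ended in the dim range. The difference between the organs' changes was -0.30 ± 0.16 log2 and was not called.

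Col13a1, a membrane-spanning collagen of cell adhesions and the neuromuscular junction, separated the organs at both ages. It ran from 6.05 (median 6.51) to 7.03 and 7.02 (7.32) to 7.82 in intestine, dim at both ages, and from 9.50 (9.71) to 10.02 and 10.00 (10.45) to 10.74 in lung. Lung was 9.45-fold higher at E16 and 8.35-fold at E20 (limma adjusted p = 1.99e-26 and 9.84e-27). Its age changes of 0.86 ± 0.11 and 0.69 ± 0.11 were not called. Col25a1, another membrane-spanning collagen, known from neurons and muscle, was also higher in lung, 2.63-fold at E16 and 3.03-fold at E20. Col8a2, a chain of the network collagen under corneal endothelium and in vessels, fell 2.23-fold in the intestine (-1.16 ± 0.12 log2, adjusted p = 2.95e-11) and changed by -0.19 in lung. Col8a1, its partner, changed by -0.23 and 0.23, and Col23a1 was dim in all 4 groups; neither was called.

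Genes that modify, assemble, bind or anchor collagen were read beside the chains. The counts of each list stand beside 15.1% of all genes called in intestine, 8.79% higher and 6.26% lower. In lung these shares were 11.8%, 7.15% and 4.63%. Of 22 enzymes and chaperones, most of which hydroxylate and fold procollagen in the endoplasmic reticulum, 3 were higher, 7 lower and 12 not called in intestine, with a median of -0.68 log2, and 0 of 22 was called in lung by limma, with a median of 0.02 (14 of 22 had an unadjusted and 12 an adjusted p under 0.05 there, with changes under 2-fold). P4ha3 (-1.53 ± 0.10) and P4ha1 (-1.22 ± 0.10), prolyl 4-hydroxylases, Plod2 (-1.40 ± 0.10), the lysyl hydroxylase of cross-link sites, and Serpinh1 (-1.24 ± 0.08), the collagen chaperone HSP47, fell there. The 3 that rose were P4hb, Tmem38b and Pepd. P4hb (1.41 ± 0.05) is also a general disulfide isomerase, and Pepd (2.66 ± 0.06) is a dipeptidase that cleaves proline-containing dipeptides, so neither acts on collagen alone.

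Of 8 processing and cross-linking genes 4 rose, 0 fell and 4 were not called in lung, against 0, 1 and 7 in intestine. Lox and Loxl1, the oxidases that start cross-links in collagen and elastin, rose by 1.05 ± 0.07 and 1.60 ± 0.07 in lung, and Loxl1 fell by 1.22 ± 0.07 in intestine. Tgm2, a transglutaminase, rose by 1.56 ± 0.12 and Sparc, a collagen-binding matrix protein, by 1.04 ± 0.08 in lung. Each of the 4 lung changes had a limma adjusted p under 0.05 and at least a 2-fold size, as had the Loxl1 decrease.

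Of 11 proteins that bind collagen fibrils, mostly small leucine-rich proteoglycans, 6 rose in lung and 0 fell; in intestine 1 rose and 2 fell. Dpt (dermatopontin) rose in both organs, by 3.16 ± 0.23 and 3.87 ± 0.23. Fmod, fibromodulin, fell by 1.99 ± 0.10 in intestine and rose by 1.29 ± 0.10 in lung. Lum, lumican, rose by 1.57 ± 0.24 in lung and was lower there than in intestine at E20 (-3.57 ± 0.24), and Vcan, versican, fell by 1.93 ± 0.13 in intestine. Lum was dim in the E16 lung.

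Among 15 laminins and other basement membrane proteins 5 rose in lung and 0 fell, while in intestine 0 rose and 2 fell. Lamb3 and Lama3, chains of an epithelial laminin, rose in lung by 2.82 ± 0.11 and 2.11 ± 0.14, and Lamb3 fell by 1.41 ± 0.11 in intestine. Both were dim in the E16 lung, and Lamb3 was dim in the E20 intestine. Lamb2 rose by 1.54 ± 0.11 and Agrn, agrin, by 1.14 ± 0.12 in lung, and Pxdn, the peroxidase that forms the sulfilimine bond of type IV collagen, fell by 1.35 ± 0.08 in intestine. Nid1, which links laminin to type IV collagen, changed by 0.76 ± 0.09 in lung and 0.47 ± 0.09 in intestine and was not called. Of 6 collagen receptors, 1 was called in each organ, beside 15.1% of all genes in intestine and 11.8% in lung. Itga1 rose in intestine (1.21 ± 0.13) and Itga11, the fibroblast receptor for fibrillar collagen, in lung (1.68 ± 0.15), and none fell. Itga11 was dim in all 4 groups, between 4.46 and 7.18 in lung, and Itga1 was dim in the E16 intestine.

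Markers of cell types that make matrix were read in the same way. Of 13 fibroblast and mesenchyme markers 0 rose and 4 fell in intestine (Pdgfrb, Tcf21, Twist1 and Fbln2). In lung 3 rose (Tcf21, Thy1 and Postn), 0 fell and 10 were not called. Beside these counts 15.1% of all genes were called in intestine and 11.8% in lung. The median change of the 13 was -0.415 log2 in intestine and 0.004 in lung, against -0.086 and -0.006 over all genes. The mean level over these 13 was 9.13 to 9.44 and 8.35 to 8.95 in the intestine at E16 and E20, which do not overlap, and 9.63 to 9.92 and 9.89 to 10.13 in lung. Of 9 smooth muscle markers 0 was called with age in intestine by limma (4 with an unadjusted p under 0.05) and 2 were higher in lung (Myh11 and Lmod1), and 5 were lower in lung than in intestine at each age. Some of these markers were dim, among them Twist1 in all 4 groups, Lmod1 in lung at both ages and Tbx4 in intestine at both ages. The part of either list in the collagen values was not tested.

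**Figure D5:**
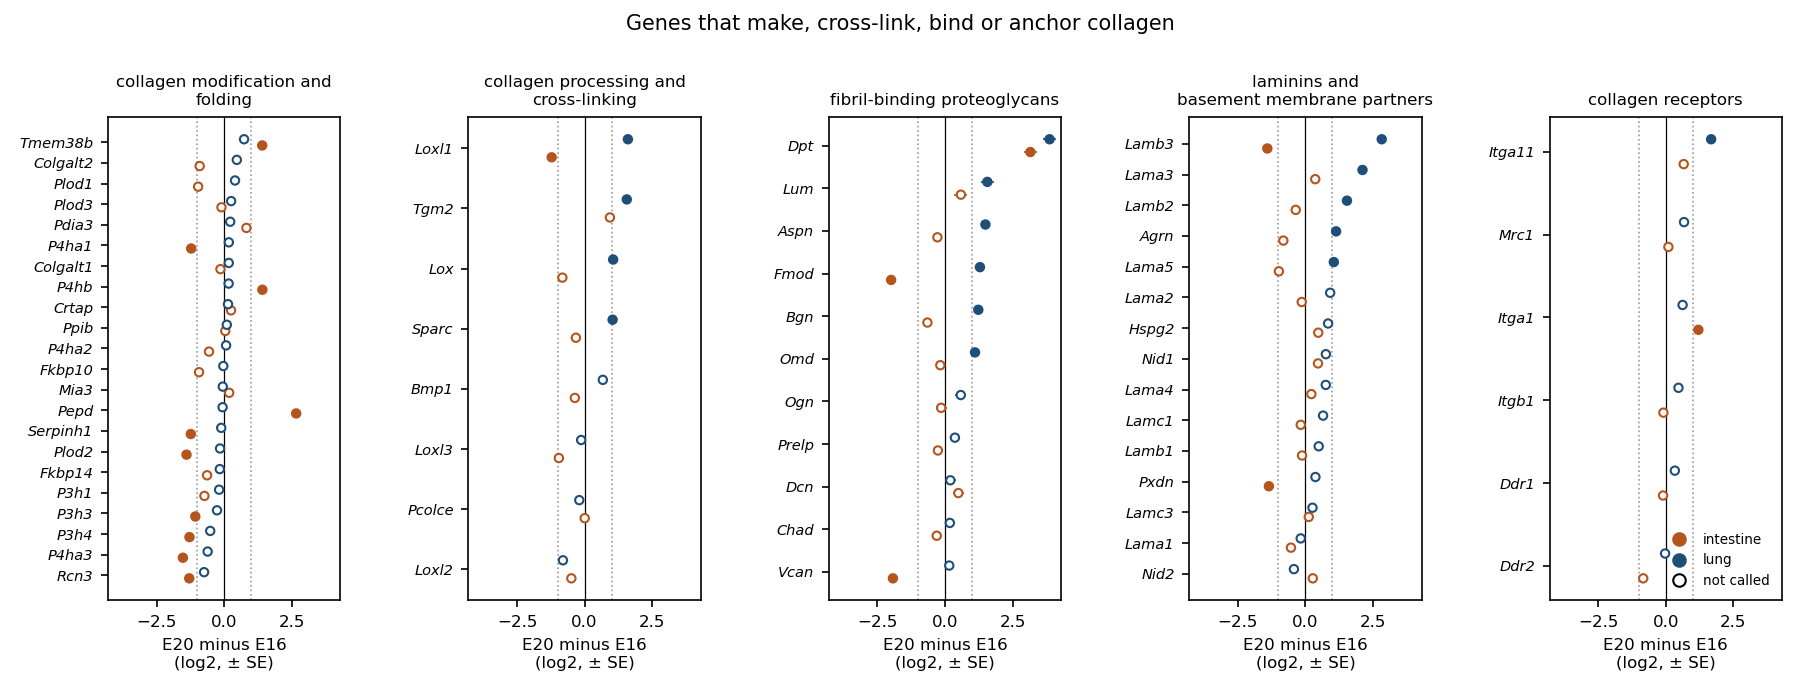
Each panel is 1 list of genes that act with collagen, and each gene has an orange point for the E20 minus E16 change in intestine and a blue one for lung, in log2 with standard errors; filled points were called, open ones were not, and dotted lines mark a 2-fold change. In the panels for cross-linking, proteoglycans and laminins the called lung points lie at the right (for example Lamb3 at 2.82), and in the first panel the called points are all intestinal.

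As a description of likeness, the genes that are not collagens with the highest correlation over the 40 arrays were found for 3 chains. For Col1a1 they were Mmp14 (r = 0.91), a membrane-bound collagenase, then Mprip, Gnai2, Copz2 and Ptms. For Col4a1 they were Sh2b3 (0.98), Epas1, Tie1, Pecam1 and Nid1, of which Tie1 and Pecam1 belong to the endothelial list. For Col2a1 they were Cnmd (0.97), Gart, Ipo4, Map3k7 and Mex3d. The 40 arrays fall into 4 groups, so these values in part restate the group pattern. With the group means removed r was 0.65 (Copz2) to 0.80 (Mmp14) for the genes of Col1a1. It was 0.71 (Pecam1) to 0.85 (Epas1) for those of Col4a1, with 0.83 for Sh2b3. For those of Col2a1 it was 0.29 (Map3k7) to 0.67 (Cnmd).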

How the data were processed

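RNA of whole organs was hybridised to 40 Affymetrix rat arrays. The authors deposited 1 table of intensities for 31099 probe sets, made with RMA per the submitters' processing notes; version and settings are not given in the sources used here. The values are on a linear scale (6.65 to 39901), so log2 was taken here, although the planned test assumed log2 values. Gene symbols came from the platform annotation: 20826 probe sets had 1 symbol, 57 control probe sets were left out, and the brightest probe set stood for a gene. All 41 chains had an Entrez identifier in the RefSeq gene table. limma 3.58.1 (R 4.3.3) was fitted with a mean for each of the 4 groups and tested on simulated data; the number of arrays limits the precision. No 2 arrays were copies (highest correlation 0.9952).

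The chains and the gene lists were chosen with earlier results of these data known. Full ranges are given for up to 3 chains of a class with the largest called change in any comparison, plus their trimer or gene-pair partners; from each list up to 4 called members were named, and others (Acan, Matn1, Nid1) after their values were seen, as were the changes of further chains. Alternatives covered normalization, centring, probe set choice, a pseudocount of 50, a filter on dim genes and array weights. They also covered the replicate number as a block, alone or with age, the fold minimum and the 9 arrays with other tissues.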

Additional observations from a re-analysis of the deposited data

Results flagged for a closer look

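In 7 of the 164 groups of 10 arrays tested (41 chains in 4 groups), the highest or lowest array lay further from the next array than Dixon's outlier test allows; chance flags about 1 group in 20. 3 of the 7 were replicate 8 of the E16 intestine, an array with pancreatic transcripts, high for Col17a1 (6.03, next 5.20), Col13a1 (7.03, next 6.55) and Col19a1 (7.18, next 6.74). Replicates 6 and 9 of that group, also with pancreatic transcripts, had 4.52 and 4.49 for Col17a1 and 6.54 and 6.05 for Col13a1. Of the other chains dim in all groups, replicate 8 was the group's highest for Col5a3, Col4a4, Col7a1, Col10a1 and Col20a1. It was not the highest for Col11a2 or Col23a1. Why this array stood high was not tested. Col2a1 was low in replicate 8 of the E20 intestine (5.73, next 6.12) and Col27a1 in its replicate 10 (8.10, next 8.35). Col19a1 was low in replicate 1 of the E20 lung (5.71, next 6.22) and Col23a1 in replicate 1 of the E16 lung (7.43, next 7.60).

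The E20 minus E16 change differed between the organs for 12 chains by limma's interaction test. It was more positive in lung for Col1a2 (1.28), Col5a2 (1.43), Col4a5 (2.16), Col4a6 (2.76), Col6a1 (1.28), Col6a2 (1.75), Col6a3 (2.48) and Col6a6 (3.37). It was more negative in lung for Col6a5 (-1.97), Col2a1 (-1.16), Col9a1 (-2.16) and Col17a1 (-4.35).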

How the results depend on the processing

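None of the values followed for single chains reversed its direction under any alternative that was run, and the other named changes were not followed. Single chains were followed for 63 values, those called and 5 under the 2-fold limit; over these and all alternatives, 717 values kept their side of the threshold, 31 lost the call and 14 gained one. Over all 41 chains, with no fold minimum the counts called were 30 in intestine, 30 in lung, 28 for the difference, 28 between organs at E16 and 30 at E20. Requiring the change itself to exceed 2-fold (limma's treat) left 7 chains in intestine and 9 in lung. It left 9 for the difference, 2 between organs at E16 and 11 at E20. The calls it ended were Col4a1, Col4a2 and Col6a5 in lung, and Col1a2, Col6a1 and Col2a1 for the difference. Col4a1 and Col4a2 were also among those it ended at E16. Keeping only bright genes left 26 chains measured and 6 called in intestine. Quantile normalization and centring each array on its median left the counts within 1 chain; centring moved the median of all genes for lung minus intestine at E16 from -0.108 to 0.044 and for the difference from 0.032 to -0.098. The mean of all probe sets ended 8 calls, among them Col6a2 in lung. Replicates were not left out in turn, because each group has 10.

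With the replicate number as a block, which also joins arrays of the 2 ages, the counts stayed at 11, 12, 12, 8 and 15, with the same chains. With age and number together as the block, which joins only the organs, 12 chains were called for the difference. Between organs 8 were called at E16 and 15 at E20, again the same chains. Arrays of the 2 organs with the same number correlated at -0.05 to 0.70 at E16 (over 0.1 in 7 of 10) and at -0.14 to 0.39 at E20 (4 of 10). At E16 6 of 10 arrays correlated best with their own number and 8 of 10 pairs shared sex-linked marks, a hint of pairing from the data and not from the labels; at E20 these were 1 and 4 of 10. Since not every pair exceeded 0.1, the numbers were not taken to pair samples.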
